A study of Homo sapiens with 9 samples.

Results

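The 9 genes described here belong to the Notch pathway: the receptors NOTCH1, NOTCH2 and NOTCH3, the ligands JAG1, JAG2 and DLL1, the sugar transferase LFNG, and the target genes HES1 and HEY1. All probe sets annotated to any of these symbols were taken, which gave 26 of the 54675 probe sets on the array; 25 are annotated to 1 member alone and 1 is shared between NOTCH2 and its near-identical copies. Of the 26, 21 exceeded the pooled median signal of 69.3 on at least 3 of the 9 arrays and were tested. Expression was measured on Affymetrix arrays, 3 per line, in 3 human breast epithelial lines of the MCF-10A series, which carry activated HRAS. MII (MCF-10AT1Kcl2) is labelled as carcinoma in situ, MIII (MCF-10A1h) as carcinoma and MIV (MCF-10A1a) as metastatic carcinoma. No line was treated, and all were grown in the same DMEM/F12 medium, with horse serum at 5%, insulin at 10 µg/ml, cholera toxin at 0.1 µg/ml, epidermal growth factor at 20 ng/ml and hydroxycortisone at 0.5 µg/ml. Each stage is represented by 1 line, so stage and line cannot be told apart. The arrays of a line are labelled biological replicates without mention of separate cultures, so the p-values describe array-to-array spread only, part of which may be technical.

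Notch receptors are membrane proteins that are activated by ligands on neighbouring cells. After ligand binding, ADAM proteases and then gamma-secretase cut the receptor, and its released intracellular domain joins RBPJ and Mastermind proteins in the nucleus to switch on target genes, of which the HES and HEY repressors are the best known. Fringe enzymes such as LFNG add sugars to the receptor that favour Delta over Jagged ligands. In the breast epithelium the pathway is known for its part in luminal cell fate.

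Array brightness was even: the median signal per array was between 64.7 and 74.9, and arrays of the same line correlated across probe sets at a mean r of 0.97 to 0.98, against 0.95 to 0.96 between lines. For the breast epithelial label, 8 of 8 epithelial markers (EPCAM, CDH1, KRT5, KRT14, KRT8, KRT18, LAMB3 and ITGB4) were above the pooled median on all arrays. Some markers of other cell types, given below, also met this mild criterion. KRT17 and TP63 were not analysed here. The summed signal of the 8 ranged from 80532 to 82313 on the MIII arrays, from 126178 to 132780 on those of MII and from 129355 to 140020 on those of MIV. The markers differed in this. CDH1 had mean signals of 1305 in MIII, 12055 in MII and 7288 in MIV, and EPCAM had 3737, 17233 and 18774. KRT14 had 957 in MIII, 2155 in MII and 137 in MIV, while KRT5 had 26308, 25794 and 25069. Of 10 mesenchymal markers, 7 exceeded the pooled median on all MIII arrays (VIM, COL1A1, COL3A1, DCN, LUM, THY1 and POSTN), 3 did so in MII and 2 in MIV. The mesenchymal sum ranged from 39703 to 42733 on the MIII arrays, from 13099 to 15237 on those of MIV and from 1682 to 1884 on those of MII. VIM gave most of this sum, with mean signals of 35106 in MIII, 13557 in MIV and 1291 in MII. Of the 7 mesenchymal markers tested, VIM alone was called in MIV against MII by the rule given below, where 8.14% of all genes were called. COL1A2, PDGFRA and PDGFRB were below the pooled median on all 9 arrays. Of 5 endothelial markers, CDH5, VWF, KDR and TEK were below it on all 9 arrays, and PECAM1 was above it. Of the 3 leukocyte markers listed, PTPRC was below it on all arrays, CD3E was above it on 6 of 9 arrays, including all of MII, and CD14 was above it on all arrays, with mean signals of 594 in MIII, 323 in MIV and 1490 in MII.

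Changes are given as differences of log2(signal + 18.3), where 18.3 is the pooled 25th percentile of all signals, with standard errors from limma. The offset damps changes among dim probe sets, so fold changes of genes near the floor depend on the offset chosen. A gene was called where its limma p, adjusted over 12594 genes, was under 0.05 and its change reached 2-fold, and "rose" and "fell" are used for called changes alone. Each gene was represented by its brightest probe set. The comparisons share arrays: those of MIII with MII and of MIV with MIII both use the MIII arrays, so high values in MIII enter both.

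DLL1, LFNG and HEY1 were highest in MIII, where NOTCH3 was lowest. The abundant receptors and ligands NOTCH1, NOTCH2, JAG1 and JAG2 stayed within 1.38-fold between any pair of lines on the offset scale described above. HES1 was highest in MII. In MIII against MII, 3 of the 9 members rose and 1 fell, where 6.17% of all genes tested rose and 5.55% fell (11.7% in either direction). In MIV against MIII, 1 rose and 3 fell, where 4.95% of all genes rose and 7.79% fell (12.7%). In MIV against MII none rose and 2 fell, where 2.96% rose and 5.18% fell (8.14%); NOTCH2 and NOTCH3 were higher there with a limma adjusted p under 0.05 but short of 2-fold. Without the fold minimum, 8 members had a limma adjusted p under 0.05 in MIII against MII, 7 in MIV against MII and 6 in MIV against MIII. The same numbers had an unadjusted p under 0.05. Over all genes, the shares with an adjusted p under 0.05 were 47.2%, 42.2% and 51.9%. The 3 arrays of one line lay wholly above those of the other for 8, 8 and 6 members in the same order, against 55.3%, 50.7% and 58.8% of all genes. Counted by probe set, 4 of the 21 tested rose and 1 fell in MIII against MII (5.56% and 4.52% of all probe sets, 10.1% together), 2 rose and 4 fell in MIV against MIII (4.21% and 6.9%, 11.1% together), and none rose and 2 fell in MIV against MII (2.52% and 4.2%, 6.72% together). The median absolute log2 change of the members was 0.40, 0.46 and 0.51 in these comparisons, beside 0.28, 0.32 and 0.25 over all genes. Because the members were chosen with earlier results of these data known, the values over all genes are a background and not an independent comparison. DLL1 passed the signal filter through its MIII arrays alone, so a difference of DLL1 from the other lines was required for it to be tested at all. The same holds for the HEY1 probe set 218839_at in the counts by probe set. Those counts also include 227067_x_at, shared between NOTCH2 and its copies, which rose in MIV against MIII.

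**Figure D1:**
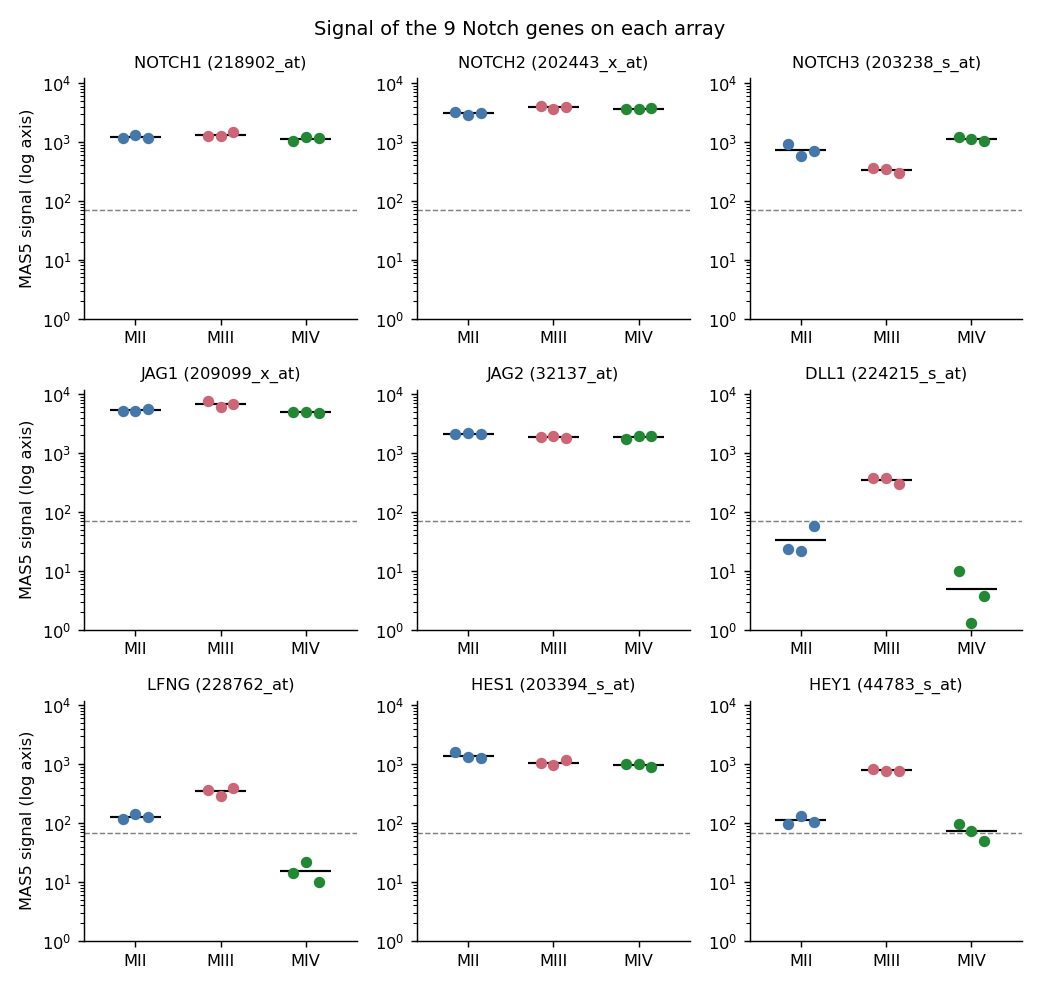
Signal of each Notch gene on its brightest probe set, one point per array (3 per line) on a log axis; black bars are means and the dashed line is the pooled median signal of 69.3. DLL1, LFNG and HEY1 are highest on the 3 MIII arrays, NOTCH3 is lowest there, and the other genes differ little between lines.

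Among the ligands, DLL1 showed the widest range. DLL1, a Delta-type ligand, had signals of 376.5, 380.2 and 299.4 on the MIII arrays, of 23.1, 21.4 and 56.8 in MII, and of 9.8, 1.3 and 3.7 in MIV. The MIII arrays stood above the pooled median and all arrays of the other lines below it, with no overlap between any pair of lines. DLL1 rose in MIII against MII by 2.89 ± 0.33 in log2 (adjusted p = 6.09e-06, 7.40-fold on the offset scale) and fell by 4.003 ± 0.33 in MIV against MIII (adjusted p = 2.1e-07, 16.0-fold). Between MIV and MII both groups were dim. The log2 change there was -1.12 ± 0.33 (adjusted p = 0.0145), a call that was lost without MII replicate 3 (-0.82, adjusted p = 0.0686), with the arrays of both lines alone (adjusted p = 0.0876), with the mean of both probe sets (-0.96) and with an offset of the pooled median (-0.46). A second DLL1 probe set (227938_s_at) was below the pooled median on all 9 arrays, at 31.7 ± 17.4 in MIII and 40.0 ± 27.3 in MII (SD, n = 3), and did not show the MIII signal. With both probe sets averaged, the log2 change was 1.37 ± 0.28 in MIII against MII (limma adjusted p = 0.00215). In MIV against MIII it was -2.32 ± 0.28 (adjusted p = 3.64e-05). This average contains the first probe set, so it cannot settle the disagreement between the probe sets.

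The Jagged ligands moved far less. JAG1, a Jagged-type ligand, had signals of 5198.3, 5258 and 5684.1 in MII, of 7617, 6096.7 and 6713.5 in MIII and of 4903.1, 4946.4 and 4881.3 in MIV. The arrays did not overlap between any pair of lines, with MIII highest and MIV lowest. Its log2 change was 0.33 ± 0.07 in MIII against MII (adjusted p = 0.00127) and -0.46 ± 0.07 in MIV against MIII (adjusted p = 7.03e-05), both short of 2-fold. MIV and MII, the neighbours in this order, differed by -0.13 ± 0.07 (adjusted p = 0.156, 95% interval -0.28 to 0.02). Of 6 JAG1 probe sets, 4 passed the filter and gave changes between -0.49 and -0.29 in MIV against MIII, and the other 2 (209097_s_at and 229924_s_at) exceeded the pooled median on 1 array and on none. JAG2, the second Jagged ligand, had 1892 ± 58.2 in MIII, 1885 ± 107 in MIV and 2144 ± 43.7 in MII (SD, n = 3). The MII arrays lay above those of both other lines, and the log2 change was -0.18 ± 0.06 in MIII (adjusted p = 0.0272) and -0.19 ± 0.06 in MIV (adjusted p = 0.0256). Between MIV and MIII, JAG2 differed by -0.0066 ± 0.061 (95% interval -0.14 to 0.12). The dimmer JAG2 probe set overlapped between all pairs of lines.

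Of the receptors, NOTCH3 was the one called in any comparison. NOTCH3 is the receptor known from vascular smooth muscle and from luminal progenitors of the breast. On probe set 203238_s_at its signals were 923.7, 572.2 and 715.8 in MII, 365.6, 342 and 301.7 in MIII, and 1206.7, 1112.8 and 1047.7 in MIV. The lines did not overlap, with MIV highest and MIII lowest. NOTCH3 rose in MIV against MIII by 1.69 ± 0.14 in log2 (adjusted p = 2.66e-07, 3.22-fold) and was higher in MIV than in MII by 0.62 ± 0.14 (adjusted p = 0.00308), short of 2-fold. In MIII against MII it fell by 1.07 ± 0.14 (adjusted p = 2.67e-05). That call sits at the 2-fold minimum and was lost without MII replicate 1 (-0.90), without MIII replicate 3 (-0.996), with the pooled median as offset (-0.97) and with averaged probe sets (-0.69). The second NOTCH3 probe set (203237_s_at) was near the pooled median, at 55.4 ± 17.8 in MIII, 72.5 ± 12.6 in MII and 114 ± 41.4 in MIV. It gave the same order of the means, with log2 changes of 0.82 ± 0.29 in MIV against MIII (adjusted p = 0.0324 over 29597 probe sets) and of -0.32 ± 0.29 in MIII against MII (adjusted p = 0.419).

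NOTCH1 and NOTCH2, the broadly expressed receptors, were not called between any pair of lines. NOTCH1 had signals of 1164.1, 1299 and 1148.9 in MII, of 1247.9, 1270.7 and 1474 in MIII and of 1037.3, 1210.6 and 1162.3 in MIV. MII overlapped with both other lines, and each MIV array lay below each MIII array. Its log2 change was -0.22 ± 0.09 in MIV against MIII (adjusted p = 0.046), 0.14 ± 0.09 in MIII against MII (95% interval -0.05 to 0.33) and -0.08 ± 0.09 in MIV against MII (95% interval -0.27 to 0.11). The dimmer NOTCH1 probe set (223508_at) correlated with it at r = -0.308 over the 9 arrays and overlapped between all pairs of lines. NOTCH2 on its brightest probe set had 3882 ± 191 in MIII, 3699 ± 129 in MIV and 3083 ± 180 in MII (SD, n = 3). The MII arrays were lower than all others, by 0.33 ± 0.06 in log2 against MIII (adjusted p = 0.000403) and by 0.26 ± 0.06 against MIV (adjusted p = 0.0029). Between MIV and MIII the NOTCH2 difference was -0.07 ± 0.06 (95% interval -0.20 to 0.06). Over the 4 probe sets annotated to NOTCH2 alone, the change in MIV against MIII lay between -0.14 and -0.06.

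Another probe set, 227067_x_at, is annotated to NOTCH2 together with NOTCH2NLA, NOTCH2NLB, NOTCH2NLC and NOTCH2NLR, the human-specific partial copies of the receptor gene. Its signals were 1881.3, 1671.7 and 1885.2 in MII, 1597.4, 1943.5 and 1683.4 in MIII, and 3430.8, 3474.5 and 3840.4 in MIV. All MIV arrays stood well above the other 6, which overlapped with each other. The log2 change was 1.04 ± 0.08 in MIV against MIII (adjusted p = 2.25e-07 over all probe sets) and 0.98 ± 0.08 against MII (adjusted p = 7.22e-07), around the 2-fold minimum. The call against MIII was lost without MIII replicate 1 (0.98) or MIV replicate 3 (0.98). None of the probe sets annotated to NOTCH2 alone showed such a difference, and which of the 5 genes gave the signal cannot be told from a shared probe set.

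**Figure D2:**
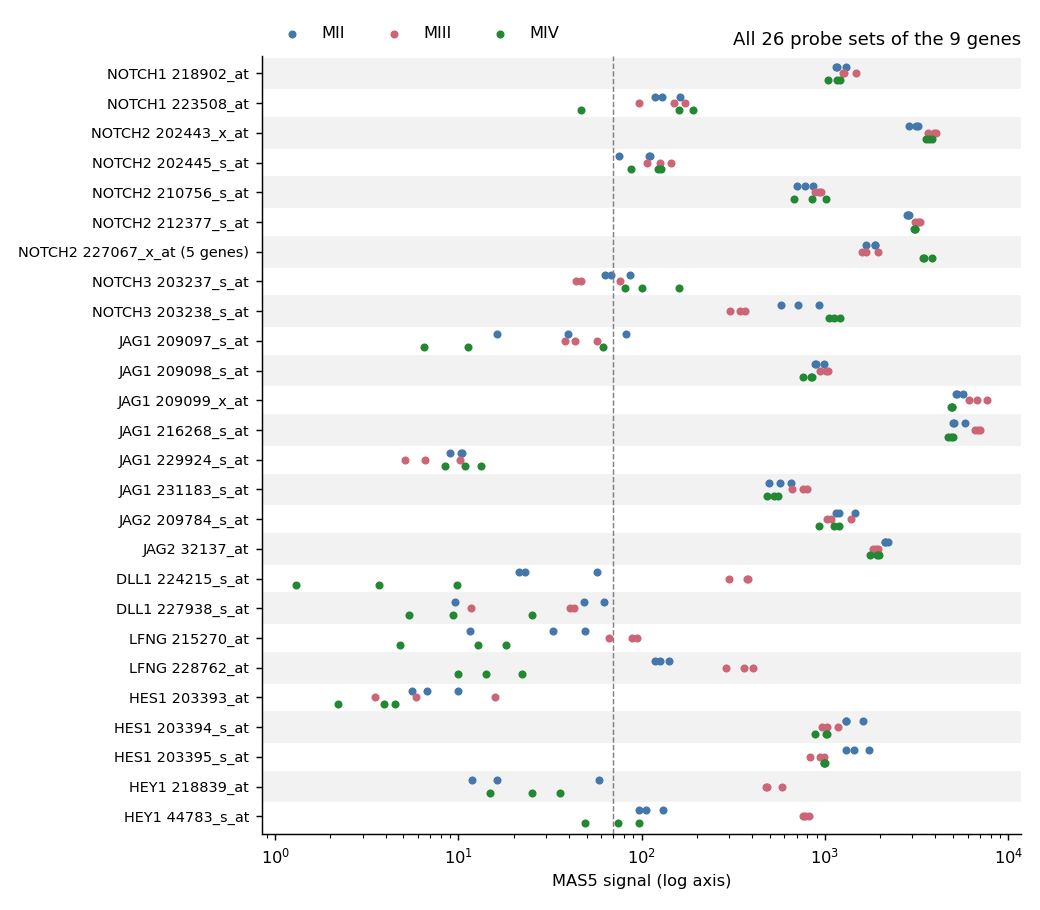
Signals of all 26 probe sets annotated to the 9 genes, 3 arrays per line, on a log axis; the dashed line is the pooled median of 69.3. Both HEY1 probe sets are highest in MIII, and the second DLL1 probe set is not. The shared NOTCH2 probe set is the one NOTCH2 row in which all MIV arrays lie above those of both other lines.

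LFNG, the Lunatic fringe transferase, was called in all 3 comparisons, as was DLL1. On probe set 228762_at its signals were 118.2, 140.9 and 125.7 in MII, 361.9, 289.9 and 402.6 in MIII, and 14.2, 22.1 and 9.9 in MIV. The lines did not overlap, and the MIV arrays were all below the pooled median. LFNG rose in MIII against MII by 1.33 ± 0.23 in log2 (adjusted p = 0.000257) and fell by 3.46 ± 0.23 in MIV against MIII (adjusted p = 2.01e-08). In MIV against MII it fell by 2.13 ± 0.23 (adjusted p = 4.69e-06). These 3 calls were kept under each of the 21 alternatives in which LFNG was tested, with values between -4.48 and -2.31 in MIV against MIII. The dim second probe set, 215270_at, failed the filter, with 83.4 ± 14.8 in MIII, 31.1 ± 18.8 in MII and 11.9 ± 6.7 in MIV. Its MIII arrays were also above all others.

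The target genes differed from each other. HEY1, a repressor of the Hairy family that Notch induces, had signals of 96.9, 131.1 and 104.9 in MII, of 822.8, 779.2 and 761.7 in MIII, and of 96.3, 74.5 and 48.9 in MIV on probe set 44783_s_at. The MIII arrays stood apart and those of the other lines lay near the pooled median. HEY1 rose in MIII against MII by 2.65 ± 0.20 in log2 (adjusted p = 7.99e-08, 6.27-fold) and fell by 3.17 ± 0.20 in MIV against MIII (adjusted p = 1.14e-08, 9.01-fold). The other probe set, 218839_at, gave 514 ± 59.5 in MIII, 28.8 ± 25.6 in MII and 25.2 ± 10.4 in MIV, with log2 changes of 3.62 ± 0.34 and -3.63 ± 0.34 (adjusted p = 1.25e-06 and 1.06e-06 over all probe sets). It passed the filter on its MIII arrays alone. Between MIV and MII, HEY1 differed by -0.52 ± 0.20 (adjusted p = 0.0467) on the first probe set and by -0.01 ± 0.34 on the second.

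HES1, the classical Notch target, had signals of 1613.4, 1304.8 and 1296.5 in MII, of 1029.8, 958.9 and 1182 in MIII, and of 1029.6, 1016.9 and 883.7 in MIV. Each MII array was above those of both other lines, which overlapped. The log2 change was -0.40 ± 0.10 in MIII against MII (adjusted p = 0.00557) and -0.51 ± 0.10 in MIV against MII (adjusted p = 0.00127), both short of 2-fold. MIV and MIII differed by -0.11 ± 0.10 (95% interval -0.33 to 0.11). The second HES1 probe set (203395_s_at) gave -0.68 ± 0.10 and -0.58 ± 0.10 against MII, and the third (203393_at) was below the pooled median on all arrays. In MIII against MII the fitted changes of HES1 and HEY1 thus had opposite signs.

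**Figure D3:**
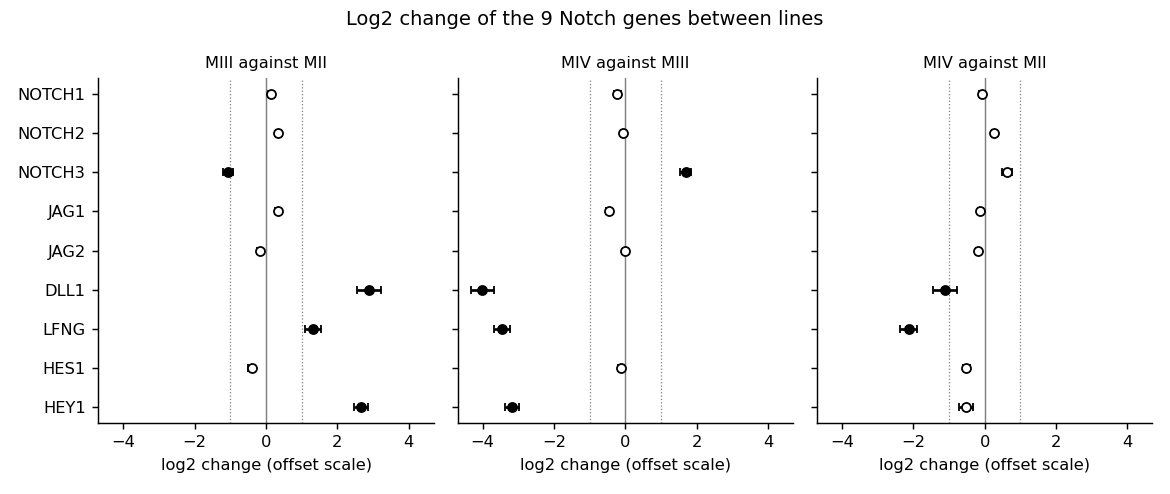
Log2 change of each gene in the 3 comparisons on the log2(signal + 18.3) scale, with bars of 1 standard error from limma; filled points are called, open points are not, and dotted lines mark 2-fold. DLL1, LFNG and HEY1 lie to the right in MIII against MII and to the left in MIV against MIII, where NOTCH3 lies on the opposite side.

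Promoter sequence was then searched for the motif of RBPJ, the factor through which Notch acts on its targets. RefSeq windows of 250 bases before the start (GRCh38.p14) were given for 7 of the 9 members, in 8 windows, as LFNG has 2 starts; the other members are DLL1 and HEY1. They were searched on both strands for TGGGAA, the core bound by RBPJ, and for its longer form GTGGGAA, which contains the core. HES1 (chr3:194135898-194136147, plus strand) held 2 cores, LFNG held 1 in the window of its downstream start (chr7:2517613-2517862, plus strand) and none in that of its upstream start, and NOTCH3 (chr19:15200996-15201245, minus strand) held none. The windows that held a core are printed, with that of NOTCH3, the called receptor, beside them, 5′ to 3′ along the gene, with cores in capitals.
HES1: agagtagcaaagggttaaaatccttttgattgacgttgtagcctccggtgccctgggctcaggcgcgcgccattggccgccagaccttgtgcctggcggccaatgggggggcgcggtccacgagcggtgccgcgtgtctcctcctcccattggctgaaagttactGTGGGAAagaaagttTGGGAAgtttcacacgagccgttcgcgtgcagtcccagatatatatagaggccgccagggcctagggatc
LFNG downstream start: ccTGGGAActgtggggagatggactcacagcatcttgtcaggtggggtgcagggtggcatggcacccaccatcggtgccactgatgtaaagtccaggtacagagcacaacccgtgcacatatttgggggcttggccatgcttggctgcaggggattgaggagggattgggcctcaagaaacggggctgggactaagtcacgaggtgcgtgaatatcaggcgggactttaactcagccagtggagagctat
NOTCH3: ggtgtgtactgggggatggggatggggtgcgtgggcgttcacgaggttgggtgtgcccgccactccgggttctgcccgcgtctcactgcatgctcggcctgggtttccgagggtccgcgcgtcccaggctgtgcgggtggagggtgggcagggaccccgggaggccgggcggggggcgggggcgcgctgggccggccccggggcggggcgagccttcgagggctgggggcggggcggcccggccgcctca
In HES1 both cores lie on the gene's strand, ending 65 and 79 bases before the start, and the farther one is the longer form. The LFNG core is 243 bases before its start. NOTCH1, NOTCH2, JAG1 and JAG2 had no core in their windows. Of 35116 promoter windows of the same length, 20.8% held at least 1 TGGGAA, 2.9% held 2 or more and 5.43% held GTGGGAA. A match is a match of letters and says nothing of binding.

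The genes most like the 3 members of widest range were sought among 2418 genes whose line means spanned at least 1 log2 unit. Over the 9 arrays, DLL1 correlated most closely with FTL, IFITM1 and GLIPR1, LFNG with AMIGO2, RAB36 and HS3ST3A1, and HEY1 with DCN, CXCL2 and CA12, with r from 0.9907 to 0.9954. The 9 arrays are 3 lines in triplicate, so these values mostly describe 3 line means. DCN, a matrix proteoglycan, had a signal of 2511 ± 119 in MIII, 75.03 ± 3.8 in MII and 52.6 ± 32.9 in MIV (SD, n = 3). Of the 10 mesenchymal markers, 6 (VIM, COL3A1, DCN, LUM, THY1 and POSTN) rose in MIII against MII and fell in MIV against MIII. Over all genes, 6.17% rose in the former comparison and 7.79% fell in the latter. The share of all genes that did both was not computed, and both comparisons use the MIII arrays. COL3A1, LUM and POSTN passed the signal filter through their MIII arrays alone, so a difference from the other lines was required for them to be tested. COL1A1 was called in neither comparison, and COL1A2, PDGFRA and PDGFRB did not pass the filter. The part of these markers in the results on DLL1, LFNG and HEY1 was not tested. In bulk RNA, fewer cells of a type and less RNA per cell cannot be told apart.

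The wider pathway was covered by a list of 64 other genes, of which 60 had a probe set of their own and 53 were tested. In MIII against MII 3 rose and 3 fell, in MIV against MIII 4 rose and 5 fell, and in MIV against MII 1 rose and 2 fell; these are 11.3%, 17% and 5.66% of the tested genes, near the 11.7%, 12.7% and 8.14% over all genes. Their median absolute log2 change was 0.34, 0.44 and 0.27. The called genes lay in 5 of the 7 roles into which the list was divided.

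Among other receptors and ligands, 3 of 6 were tested, and NOTCH4, DLL4 and DLK1 did not pass the filter. DLK2, a non-canonical Delta-like protein, fell at each step, from 1163 ± 17.2 in MII to 461 ± 24.1 in MIII and 121 ± 5.4 in MIV (SD, n = 3). Its log2 change was -1.30 ± 0.10 in MIII against MII and -3.08 ± 0.10 in MIV against MII (adjusted p = 1.03e-07 and 2.53e-11). In the glycosylation group, 1 of 4 genes was called in MIII against MII and in MIV against MIII (11.7% and 12.7% of all genes). None was called in MIV against MII (8.14%), where 1 had a limma p under 0.05 both before and after adjustment. Over all genes, 42.2% had an adjusted p under 0.05 there. POGLUT1, which adds glucose to the receptor's EGF repeats, rose in MIII against MII by 1.10 ± 0.10 and fell by 1.19 ± 0.10 in MIV against MIII (adjusted p = 4.39e-07 and 1.97e-07), and its other probe set gave 1.19 and -1.15. RFNG, the Radical fringe, had the smallest p of the group in MIV against MII, with 0.58 ± 0.12 (adjusted p = 0.00189).

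The cutting and nuclear machinery had no called member. None of 8 tested proteases and gamma-secretase subunits and none of 8 nuclear complex genes reached 2-fold in any comparison, although in MIV against MIII 5 and 6 of them had a limma adjusted p under 0.05, and 7 and 6 an unadjusted p under 0.05; over all genes 51.9% had an adjusted p under 0.05 and 12.7% were called in that comparison. The smallest p among the proteases belonged to ADAM10, which makes the first cut (-0.52 ± 0.06 in MIV against MIII), PSENEN, a gamma-secretase subunit (-0.45 ± 0.07 in MIV against MII), and the convertase FURIN (0.78 ± 0.11 in MIII against MII). In the nuclear complex it belonged to the coactivators MAML2 (-0.60 ± 0.08 in MIV against MIII and -0.35 ± 0.08 against MII) and MAML3 (-0.71 ± 0.16 in MIII against MII).

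Of 7 tested corepressors, 2 were called in MIII against MII and in MIV against MIII (11.7% and 12.7% of all genes). None was called in MIV against MII (8.14%), where 4 had a limma p under 0.05 both before and after adjustment. Over all genes, 42.2% had an adjusted p under 0.05 there. The Groucho-type corepressor TLE1 fell by 1.10 ± 0.08 in log2 in MIII against MII and rose in MIV against MIII by 1.04 ± 0.08, while TLE3 rose by 1.05 ± 0.12 and then fell by 1.37 ± 0.12. The TLE1 rise was lost without MIII replicate 1 (0.96), with averaged probe sets (0.85) and with the pooled median as offset (0.9992), and the TLE3 rise without MII replicate 2 (0.96) or with that offset (0.98). With averaged probe sets both TLE3 calls were lost (0.95 and -0.96). TLE4 had 0.75 ± 0.09 in MIV against MII. In trafficking and turnover, 2 of 15 tested genes were called in MIV against MIII (13.3%, near the 12.7% over all genes). In MIII against MII 1 was called (6.67%, against 11.7%), and in MIV against MII none was (8.14%). In MIV against MII, 7 had an adjusted limma p under 0.05, beside 42.2% of all genes, and 8 an unadjusted p under 0.05. NEURL1B, a ubiquitin ligase that promotes ligand endocytosis, went from 122 ± 31.4 in MII to 727 ± 62.5 in MIII and 79.4 ± 26.4 in MIV (SD, n = 3), a rise of 2.43 ± 0.21 and a fall of 2.96 ± 0.21 (adjusted p = 3.58e-07 and 4.35e-08). ITCH, a ligase that marks receptors for degradation, rose in MIV against MIII by 1.07 ± 0.08, a call lost with averaged probe sets (0.88). DTX3L had 0.96 ± 0.07 in MIV against MII.

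In the group listed as other targets, 8 of 11 genes were tested, and HES5, HEY2 and HEYL did not pass the filter. A place on this list does not show that Notch controls a gene, which was not tested here. HES6, which opposes HES1, was lowest in MIII and highest in MIV, at 10.4 ± 5.4 in MIII, 71.7 ± 32.1 in MII and 257 ± 64.5 in MIV (SD, n = 3). It rose in MIV against MIII by 3.25 ± 0.33 and against MII by 1.66 ± 0.33 (adjusted p = 1.89e-06 and 0.00118) and fell by 1.59 ± 0.33 in MIII against MII (adjusted p = 0.00129), the last of which was lost with the pooled median as offset (-0.80). HES2, a repressor of the same family, rose in MIV against MIII by 1.59 ± 0.18 (adjusted p = 4.38e-06), and of its other probe sets 1 gave 1.65 and 1 gave 0.89. CDKN1A, the kinase inhibitor p21 and a Notch target in keratinocytes, fell by 2.09 ± 0.06 in MIV against MIII and fell by 2.40 ± 0.06 against MII (adjusted p = 1.83e-12 and 1.1e-12).

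**Figure D4:**
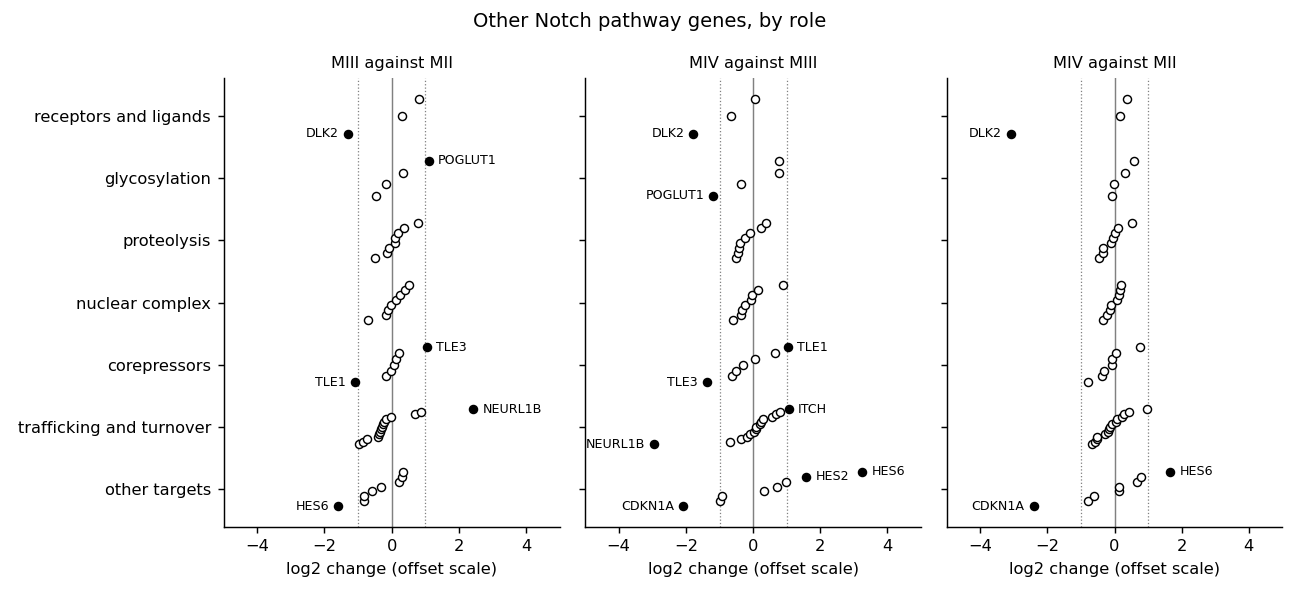
Log2 change of the 53 tested genes of the wider pathway by role, one point per gene; filled and named points are called, open points are not, and dotted lines mark 2-fold. NEURL1B and POGLUT1 lie to the right in MIII against MII and to the left in MIV against MIII, and the proteolysis and nuclear complex genes all lie within the 2-fold lines.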

How the data were processed

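The deposited table holds linear intensity values, which the submitters' processing notes name as MAS5 signals; its software version is not named there. The mean of the middle 96% of signals was near 500.07 on each array, so no further scaling was applied. Probe sets were named from the platform annotation. Genes with fewer than 3 arrays above the pooled median were left out. With limma 3.58.1 under R 4.3.3, line means were estimated from the 9 arrays together, using a variance prior that follows intensity and Benjamini-Hochberg adjustment over 12594 genes, and again over 29597 probe sets. The smallest p of an exact permutation test with 3 arrays against 3 is 0.1, so none is given. On simulated data with normal noise, 95% of genes with a true log2 change of 1.5 were called in MIV against MIII. The simulation held neither changes near the 2-fold minimum nor a signal floor, so it does not cover calls of those kinds. Members and lists were chosen with earlier results of these data known. Wider pathway genes were named by rule: up to 4 called genes per role and comparison by largest change, otherwise the gene with the smallest p. Alternatives covered offset, scaling, filter, variance prior, probe set choice, replicate block, threshold and left-out arrays.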

Additional observations from a re-analysis of the deposited data

How the results depend on the processing

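Each log2 change named was recomputed under up to 22 alternatives, which gave 1218 values. Of these, 1175 kept direction and side of the threshold, 19 lost a call, 21 gained one and 3 changed sign. Dropping the fold minimum gave 20 of the 21 gains. Several alternatives cannot alter the log2 change itself, only its p or call. Examples are no filter, no intensity trend, the replicate block and leaving out an array of the line not compared. The 1175 are therefore not independent checks. All 3 sign changes concern JAG2 in MIV against MIII, which was not called: 0.0031 with arrays scaled to the same median, and -0.0393 to 0.0397 when single arrays were left out. The counts are given here in the order MIV against MIII, MIV against MII and MIII against MII. Main counts were 4, 2 and 4 members, 9, 3 and 6 wider genes and 1604, 1025 and 1476 genes. Without a fold minimum they were 6, 7 and 8 members, 39, 25 and 32 wider genes and 6530, 5310 and 5946 genes. When the filter was raised to the 75th percentile of signals (435.7), 2, 0 and 2 members and 893, 535 and 810 genes were called, as DLL1 and LFNG were no longer tested. On suffix-free probe sets 2, 1 and 2 members were called, since DLL1 and NOTCH3 have none, and 1 wider gene in MIV against MII. In MIV against MII, 1 member was called with averaged probe sets, with the arrays of both lines alone and with the pooled median as offset, where 681 genes were called. Leaving out 1 array gave 1 to 2 members there, 4 in MIV against MIII and 3 to 4 in MIII against MII. The replicate numbers did not pair the arrays, as deviations of same-numbered arrays correlated at -0.04 to 0.04; a replicate block left 4, 2 and 4 members and 1607, 1026 and 1483 genes called. The signals of DLL1 and LFNG in MIV, under the pooled median, limit what their ratios can show.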
